A study of Rattus norvegicus with 6 samples.

Results

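Bhlha15 encodes MIST1, a transcription factor of the basic helix-loop-helix (bHLH) family, and is described here through the 1 probeset that names it among 25476 probesets, or as 1 of 12603 genes. The gene was chosen by its measured values on these arrays, a rise with doxycycline (Dox) that was absent when 4μ8c was added, so its own values are a description and carry no test. The cells were rat INS-1 insulinoma cells, a model of the pancreatic β-cell. They came from 1 clone in which Dox switches on a GFP fusion of insulin 2 that carries the Akita change, C96Y, and so misfolds in the ER (endoplasmic reticulum). The 3 groups, harvested at 48 h, were cells given Dox (4 μg/ml in the sample labels) with 5 μM 4μ8c, which blocks the endoribonuclease of IRE1, cells given Dox alone, and untreated cells. Each of the 2 experiments gave 1 array per group, 6 arrays in all. The p-values below rest only on the spread between these experiments, and limma takes part of that spread from the other genes. Dox against untreated asks what changes while the mutant proinsulin is made, and Dox+4μ8c against Dox asks what differs when IRE1 is blocked as well. Cells of every group carry the transgene, hence any effect of Dox alone and that of the mutant protein cannot be told apart. Cells given 4μ8c without Dox were not analysed here.

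MIST1 is found in cells devoted to regulated secretion, such as pancreatic acinar cells, gastric chief cells and plasma cells, where it enlarges the machinery that makes and stores secretory protein. It binds E-box DNA as a dimer and is known in mouse to activate genes such as Rab26 and Rab3d. In the unfolded protein response (UPR), IRE1 splices the Xbp1 mRNA, and the XBP1 protein made from it activates genes of the ER. Bhlha15 itself is known as a target of XBP1 in mouse cells.

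The promoter of Bhlha15 is printed with those of Dnajb9, the gene whose values were closest to it, and Kdelr3, the only 1 of the 6 most alike genes with a promoter sequence that held the full UPR element TGACGTGG. Each window runs 5′ to 3′ on the strand of the gene, 250 bases before the RefSeq start and 50 after it (build GRCr8). Capitals mark CCACG on either strand, which is the XBP1 and ATF6 binding core, and ACGT, and the 2 motifs overlap where CCACGT is read.
Bhlha15: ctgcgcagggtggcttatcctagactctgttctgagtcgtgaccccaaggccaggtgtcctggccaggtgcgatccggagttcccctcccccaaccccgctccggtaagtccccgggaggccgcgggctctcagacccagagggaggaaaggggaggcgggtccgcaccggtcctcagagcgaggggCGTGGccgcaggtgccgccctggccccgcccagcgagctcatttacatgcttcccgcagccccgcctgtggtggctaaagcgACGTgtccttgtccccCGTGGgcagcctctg
Dnajb9: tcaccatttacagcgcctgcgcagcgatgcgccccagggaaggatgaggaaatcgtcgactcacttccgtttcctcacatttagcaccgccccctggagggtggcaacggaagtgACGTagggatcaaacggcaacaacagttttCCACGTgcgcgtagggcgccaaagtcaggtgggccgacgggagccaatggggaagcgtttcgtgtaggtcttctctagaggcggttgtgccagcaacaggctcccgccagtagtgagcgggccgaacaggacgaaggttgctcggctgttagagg
Kdelr3: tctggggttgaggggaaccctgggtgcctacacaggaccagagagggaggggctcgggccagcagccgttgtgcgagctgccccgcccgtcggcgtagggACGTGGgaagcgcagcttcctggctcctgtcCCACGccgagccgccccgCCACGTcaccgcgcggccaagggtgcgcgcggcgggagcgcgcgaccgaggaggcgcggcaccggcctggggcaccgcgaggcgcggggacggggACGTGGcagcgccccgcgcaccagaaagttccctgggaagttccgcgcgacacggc

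The window of Bhlha15 lies at chr12:15538250-15538549 (minus strand), that of Dnajb9 at chr6:67002002-67002301 (minus strand) and that of Kdelr3 at chr7:112959382-112959681 (plus strand). Counted from 1 at the 5′ end, the Bhlha15 window held CGTGG, the reverse complement of CCACG, at bases 188 to 192 and 286 to 290. It held ACGT at bases 270 to 273. CCACG on either strand occurred in 31.6% and ACGT in 31.6% of 33365 rat promoters of the same length. The Bhlha15 window did not hold TGACGTGG (0.596% of promoters), TGACGTCA (1.83%), ERSE (0.0659%), ERSE-II (0.0510%) or CATATG, the E-box reported for MIST1 itself in mouse (4.08%). It held CANNTG, the general E-box, 3 times, a motif that 72.1% of promoters held. Its GC content was 69%, against a median of 51.7% over all promoters. A match is a string of letters and not a measured site.

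The values are log2 signals that the authors centred for each probeset within an experiment, so that differences between arrays of 1 experiment are kept and signal levels are lost. Neither the level of Bhlha15 nor that of β-cell markers in untreated cells can therefore be given. Fits below that leave out the experiment as a block count the offset of this centring between experiments as spread. A call lost in such a fit can thus come from the centring. Without the block, all genes lost the call for Dox+4μ8c against untreated cells. Without either Dox+4μ8c array, all genes lost the call for Dox+4μ8c against Dox. A call lost in these fits is not particular to the gene named. In experiment 1, 25.5% of all probesets were at exactly 0 on all 3 arrays, against 0.00393% in experiment 2. The probeset of Bhlha15 was not among them. Dox replicate 2 varied most over all probesets, with an SD of 0.18 against 0.05 to 0.12 on the other 5 arrays. On that array the gap between 5′ and 3′ probesets of 4 poly-A spike-in RNAs stood at -0.50 relative to untreated cells of its experiment, while the remaining treated arrays stood between -0.25 and 0.04. In such bulk samples, fewer cells with a transcript and less transcript per cell cannot be told apart.

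In experiment 1 the centred log2 value of Bhlha15 was 0.00 with Dox+4μ8c, 1.18 with Dox and -0.05 in untreated cells. In experiment 2 it was -0.12 with Dox+4μ8c, 1.59 with Dox and 0.12 in untreated cells. In each experiment the Dox array stood above the other arrays of that experiment. The zero point of the centring differs between experiments, so values are not compared across them. With Dox, Bhlha15 was 2.34 fold above untreated cells in experiment 1 and 2.77 fold above in experiment 2, which makes a mean log2 difference of 1.35 ± 0.17 (SD, n = 2; SE 0.12 by limma) or 2.54 fold. With Dox+4μ8c it was 2.26 fold and 3.28 fold below Dox in experiments 1 and 2, a mean log2 difference of -1.44 ± 0.38 (SD, n = 2; SE 0.12). With Dox+4μ8c against untreated cells the log2 difference was 0.05 in experiment 1 and -0.24 in experiment 2, with a mean of -0.10 ± 0.21 (SD, n = 2; SE 0.12). The order of the levels was thus Dox highest in each experiment, while Dox+4μ8c and untreated cells exchanged places between experiments. The closeness of Dox+4μ8c to untreated cells is part of the pattern that the gene was chosen for.

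**Figure D1:**
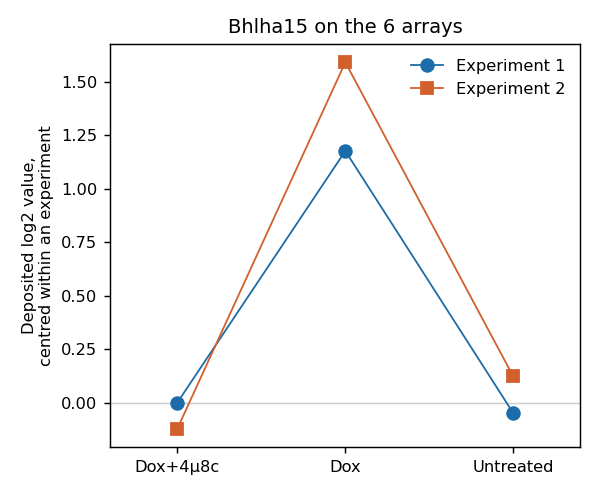
Centred log2 value of Bhlha15 (y axis) on the 6 arrays by group (x axis), with a line joining the 3 arrays of an experiment. The Dox array is the highest in each experiment, at 1.18 and 1.59, and the remaining values run from -0.12 to 0.12. Values are comparable only within an experiment.

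The size of the change differed between experiments more for Bhlha15 than for most genes. Its difference between Dox+4μ8c and Dox was lower by 0.54 in experiment 2 than in experiment 1 (-0.54), whereas the median size of this gap over all genes was 0.08 and its 90th percentile 0.23. For Dox against untreated cells the gap was 0.24, with a median size of 0.09 and a 90th percentile of 0.26 over all genes.

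Among all 12603 genes, Bhlha15 had the 12th largest rise with Dox, and was placed 18 in experiment 1 and 10 in experiment 2. The genes just above it were Psat1 of serine synthesis at a log2 change of 1.41, the ER protein gene Creld2 at 1.46 and the ER peptidyl-prolyl isomerase gene Fkbp11 at 1.52. Those just below were Slc1a4, a neutral amino acid transporter, at 1.32, Dnajb9 at 1.25 and Ggct of glutathione turnover at 1.23. All 6 lay within the 0.17 SD of Bhlha15 between experiments, which is not the spread of a gap between genes. The rank of Bhlha15 also moved between experiments, so its place among the 6 is not taken as resolved. By limma's moderated t, which divides the change by its error, the place of Bhlha15 was 64.

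Between Dox+4μ8c and Dox, Bhlha15 had the lowest log2 difference of all 12603 genes, in experiment 1, in experiment 2 and in their mean. Fkbp11 was next each time, at -0.98 in experiment 1 against -1.18 for Bhlha15, and at -1.27 in experiment 2 against -1.71. The gap to Fkbp11 was -0.19 in experiment 1, -0.44 in experiment 2 and -0.32 in the mean. No test was made of this gap. Dnajb9 at -1.05 and Kdelr3, which encodes a receptor returning ER proteins from the Golgi, at -0.97 followed. By moderated t Bhlha15 was placed 10. For Dox+4μ8c against untreated cells, 3781 genes, Bhlha15 included, had a change at least as large in either direction.

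The 11 genes that rose more than Bhlha15 with Dox ranged from -1.13 (Fkbp11) to 0.19 (the serpin gene Serpinb9b) between Dox+4μ8c and Dox. With Dox+4μ8c against untreated cells they ranged from 0.39 (Fkbp11) to 2.80 (the pseudokinase gene Trib3), while Bhlha15 was at -0.10. Psat1, next above it in rank, was at 1.33 in that comparison and Slc1a4, next below, at 0.99. The comparisons share arrays, so these values are given side by side and no relation is drawn between them.

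**Figure D2:**
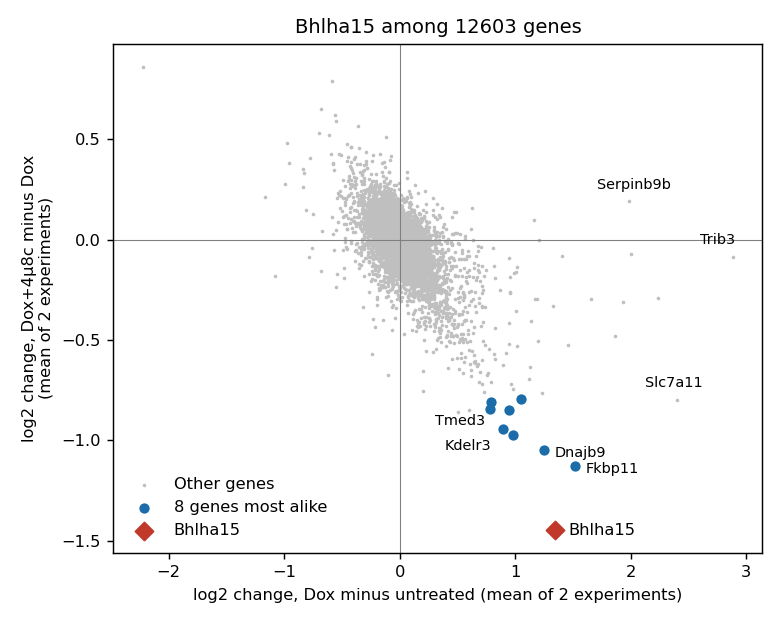
Mean log2 change over both experiments of 12603 genes with Dox against untreated cells (x axis) and with Dox+4μ8c against Dox (y axis), where the axes share the Dox arrays. Bhlha15 (diamond) is the lowest point at -1.44, and the 8 genes most alike to it over the arrays (large dots) lie between -0.79 and -1.13 on the y axis.

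The genes most alike to Bhlha15 were sought over the 6 arrays, after the mean of each experiment was subtracted, by Euclidean distance on the log2 scale. Since 337 other genes had a Pearson r above 0.95 with it over these 6 arrays, r by itself separates few genes. The values below chose these genes and are a description. Dnajb9, which encodes the BiP co-chaperone ERdj4, was closest (distance 0.47, r = 0.97). It was at 0.00 with Dox+4μ8c, 0.94 with Dox and -0.42 in untreated cells in experiment 1. In experiment 2 it was at -0.01 with Dox+4μ8c, 1.15 with Dox and 0.01 in untreated cells. With Dox+4μ8c it therefore stood 0.42 above untreated cells in experiment 1 and 0.02 below in experiment 2 (-0.02).

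Fkbp11 was the next closest (distance 0.51, r = 0.95). Unlike Bhlha15, it stood above untreated cells with Dox+4μ8c in each experiment, by 0.50 and 0.28. Kdelr3 (distance 0.54, r = 0.99) and Tmed3, which encodes a p24 cargo receptor of ER to Golgi transport (distance 0.56, r = 1.00), differed from untreated cells by 0.01 and -0.05 with Dox+4μ8c. Tmed3 was at 0.00 with Dox+4μ8c, 0.77 with Dox and -0.06 in untreated cells in experiment 1, and at -0.08 with Dox+4μ8c, 1.04 with Dox and 0.08 in untreated cells in experiment 2. It had the shape of Bhlha15 on a smaller scale. The others were the zinc finger gene Zfp9 (distance 0.67), the ornithine aminotransferase gene Oat (0.69), Smim14, which encodes a small membrane protein (0.71), and the ER selenoprotein gene Selenom (0.71). Each of the 8 genes had 1 probeset. In the difference between Dox+4μ8c and Dox they ranged from -0.79 for Oat to -1.13 for Fkbp11. Bhlha15, at -1.44, had the lowest difference of all genes, so the smaller size of theirs follows from that rank.

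**Figure D3:**
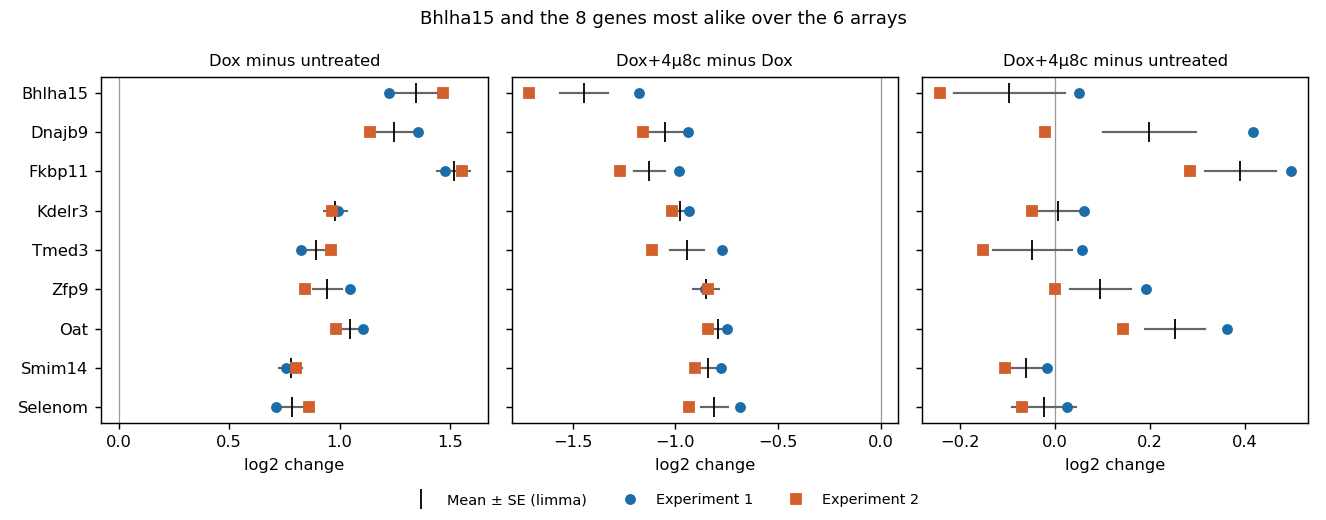
Log2 change (x axes) of Bhlha15 and the 8 genes most alike to it, in 3 comparisons, with a circle for experiment 1, a square for experiment 2 and a tick with a bar for the mean ± SE by limma. The shift of Bhlha15 between Dox+4μ8c and Dox, at -1.18 and -1.71, was the lowest of all genes in each experiment and so lies leftmost. With Dox+4μ8c against untreated cells Fkbp11 and Oat stay above 0 in both experiments.

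Of these 8 genes, 6 had a promoter in the RefSeq table (Zfp9 and Smim14 did not match). CCACG on either strand and ACGT were each found in the windows of 5 of them, Dnajb9, Kdelr3, Tmed3, Oat and Selenom, and neither was found in that of Fkbp11. TGACGTGG was found in that of Kdelr3, where CCACGTCA at bases 150 to 157 is its reverse complement. The genes were picked by their values on these arrays, so no count of motifs is set against other promoters.

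Genes reported as targets of MIST1 in other cells were read next. Their values did not enter the choice of Bhlha15, but the list was made with earlier results of these data known. Over all genes, limma called 4.42% higher and 2.01% lower with Dox than untreated, 0.175% higher and 1.61% lower with Dox+4μ8c than with Dox, and 1.17% higher and 1.13% lower with Dox+4μ8c than untreated, at a Benjamini-Hochberg adjusted p under 0.05. Of 6 listed targets, 1 rose and 0 fell with Dox, 0 rose and 1 fell with Dox+4μ8c against Dox, and 0 passed for Dox+4μ8c against untreated (before adjustment, 1 higher and 2 lower had a p under 0.05). With 6 genes, each of these counts is a single call. The median log2 change of the 6 was 0.04 with Dox and -0.09 with Dox+4μ8c against Dox, beside 0.01 and -0.01 over all genes.

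Rab26, which encodes a small GTPase of secretory vesicles, was the target that fell with 4μ8c. Its centred log2 value was -0.25 with Dox+4μ8c, 0.11 with Dox and 0.00 in untreated cells in experiment 1. In experiment 2 it was -0.16 with Dox+4μ8c, 0.34 with Dox and 0.16 in untreated cells. In both experiments the Dox+4μ8c array was the lowest and the Dox array the highest. The log2 difference between Dox+4μ8c and Dox was -0.43 (SE 0.05, limma adjusted p = 0.022), or 1.35 fold lower, and Rab26 had the 119th largest fall of all genes. Against untreated cells it was at 0.15 with Dox (limma adjusted p = 0.19) and at -0.28 with Dox+4μ8c (limma adjusted p = 0.059), neither of which passed. The fall did not pass in limma without the experiment as a block (adjusted p = 0.12). It also did not pass without Dox+4μ8c replicate 1 or replicate 2, fits in which the loss was not particular to Rab26.

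Rab3d, a GTPase gene of zymogen granules, had the same order of arrays. It was at -0.17 with Dox+4μ8c, 0.07 with Dox and 0.00 in untreated cells in experiment 1, and at -0.15 with Dox+4μ8c, 0.21 with Dox and 0.13 in untreated cells in experiment 2. Its difference between Dox+4μ8c and Dox, -0.30 (SE 0.05), did not pass (limma adjusted p = 0.056), but passed without Dox replicate 1 (0.030). Copz2, which encodes a subunit of the COPI coat, rose with Dox by 0.34 (SE 0.06, limma adjusted p = 0.032), or 1.26 fold. It did not pass without the block (adjusted p = 0.056), without Dox replicate 2 (0.085), without untreated replicate 2 (0.19) or without either Dox+4μ8c array (0.080 in each case). Atp2c2, a calcium pump of the secretory pathway, Gjb1, which encodes connexin 32, and Cdkn1a, which encodes the cell cycle inhibitor p21, passed in no comparison. Their log2 differences between Dox+4μ8c and Dox were 0.03, -0.02 and 0.18. The 2 probesets of Cdkn1a were at 0.36 and 0.00 in that comparison.

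Between Dox+4μ8c and Dox the change of the targets largest in size was -0.43. Bhlha15, at -1.44, was chosen for its change and had the lowest of all genes. That the targets changed less follows from this choice. The 8 Rab GTPase genes of secretory granules include Rab26 and Rab3d. With Dox, 0 rose and 1 fell, beside 4.42% and 2.01% of all genes (1 was higher at an unadjusted p under 0.05). Against Dox, 0 rose and 1, Rab26, fell with Dox+4μ8c, beside 0.175% and 1.61% (1 was higher at an unadjusted p under 0.05). The gene that fell with Dox was Rab3b, at -0.47 (SE 0.05, limma adjusted p = 0.0055). It did not pass without untreated replicate 1 (adjusted p = 0.053) or without the block (0.055). Rab3a, Rab3c, Rab27a, Rab27b and Rab37 were at 0.00, 0.09, -0.05, 0.03 and 0.05 between Dox+4μ8c and Dox, and did not pass.

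**Figure D4:**
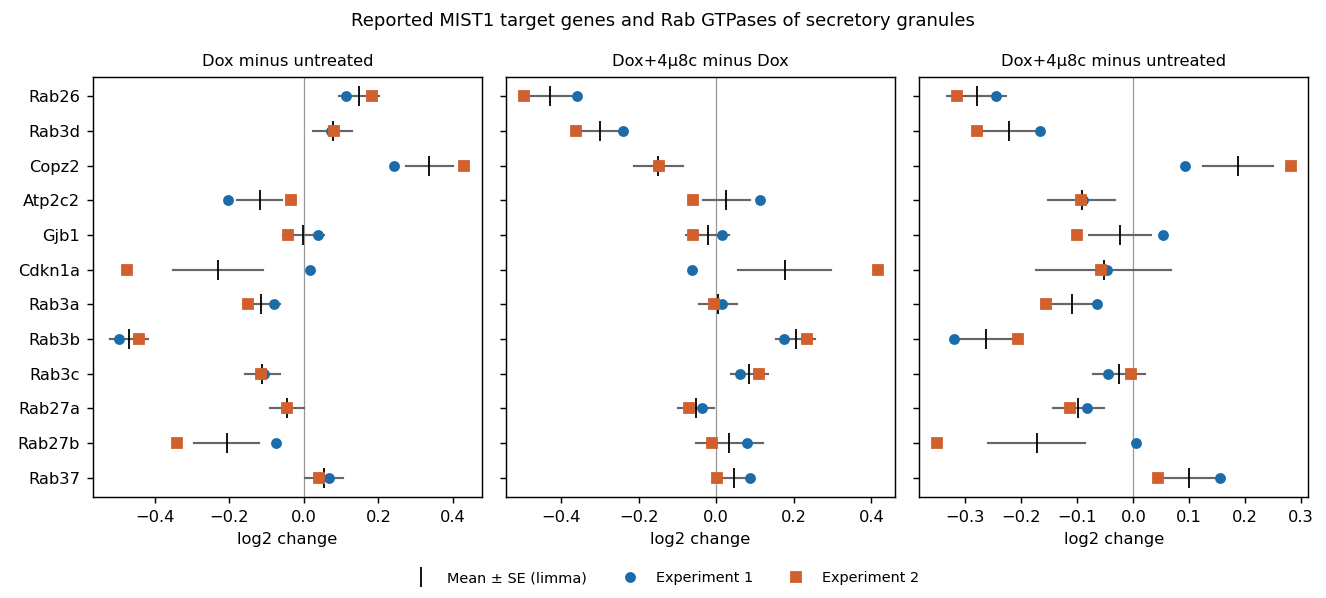
Log2 change (x axes) of 6 reported MIST1 target genes and the other Rab GTPase genes of secretory granules in 3 comparisons, with a circle for experiment 1, a square for experiment 2 and a tick with a bar for the mean ± SE by limma. Rab26 and Rab3d lie left of 0 with Dox+4μ8c against Dox in both experiments, at means of -0.43 and -0.30.

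The IRE1-XBP1 arm was read in 10 listed genes, of which 9 were measured (Ern1, which encodes IRE1, was not analysed here). Apart from Xbp1, the measured genes encode proteins of the ER and its transport. Whether any of them acts on Bhlha15 was not tested. That Bhlha15 is a target of XBP1 is known from mouse cells and was not tested here. With Dox 8 of the 9 rose and 0 fell, beside 4.42% and 2.01% of all genes. With Dox+4μ8c against Dox 5 fell and 0 rose, beside 1.61% and 0.175% of all genes. Against untreated cells 4 were still higher and 0 lower with Dox+4μ8c, beside 1.17% and 1.13%. At an unadjusted p under 0.05, 1 was lower in that comparison, and 0 went in the opposite direction in the other 2. Without the block, 3 of the 8 rises with Dox passed (Dnajb9, Dnajc3 and Edem1), and those of Serp1, Dnajb11, Sec61b, Pdia6 and Xbp1 did not (limma adjusted p from 0.053 to 0.13). The 4 genes higher with Dox+4μ8c than untreated were Xbp1, Dnajc3, Dnajb11 and Pdia6. None of these 4 passed without the block (adjusted p from 0.13 to 0.23), a fit in which all genes lost this call. None passed without either Dox+4μ8c array or without untreated replicate 1, and Xbp1 and Pdia6 did not pass without untreated replicate 2. Among the rises with Dox, that of Serp1 did not pass without untreated replicate 1 (0.069), nor that of Sec61b without Dox replicate 2 (0.070) or untreated replicate 1 (0.12) or replicate 2 (0.14). The median log2 change was 0.60 with Dox, -0.49 between Dox+4μ8c and Dox and 0.20 with Dox+4μ8c against untreated, beside 0.01, -0.01 and 0.00 over all genes. The list holds Dnajb9, named above for its likeness, and several of its genes are among those already known to change in these data.

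Xbp1 mRNA itself did not follow Bhlha15. It was at 0.14 with Dox+4μ8c, 0.00 with Dox and -0.38 in untreated cells in experiment 1, and at 0.19 with Dox+4μ8c, 0.11 with Dox and -0.11 in untreated cells in experiment 2. The Dox+4μ8c array was the highest in both. Its log2 difference was 0.11 (SE 0.06, limma adjusted p = 0.58) between Dox+4μ8c and Dox and 0.41 (SE 0.06, limma adjusted p = 0.033) between Dox+4μ8c and untreated cells, and its rise with Dox was 0.30 (limma adjusted p = 0.046). Without the block neither rise passed (adjusted p = 0.13 for each), and the rise with Dox did not pass with each array centred on its median (0.056). The rise with Dox did not pass without any of the 6 arrays in turn (limma adjusted p from 0.058 to 0.18). The difference between Dox+4μ8c and untreated cells passed without either Dox array but not without any of the other 4 (0.068 to 0.31). These values do not separate spliced from unspliced Xbp1 mRNA.

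Edem1, which delivers misfolded glycoproteins to degradation, rose with Dox and fell with Dox+4μ8c against Dox. It was at 0.45 with Dox (SE 0.06, limma adjusted p = 0.0088), at -0.59 between Dox+4μ8c and Dox (SE 0.06, adjusted p = 0.013) and at -0.15 with Dox+4μ8c against untreated cells (adjusted p = 0.29). Its 3 probesets were at -0.41, -0.53 and -0.84 between Dox+4μ8c and Dox. Sec61b, a subunit of the ER translocon, fell by 0.49 with Dox+4μ8c against Dox (limma adjusted p = 0.023). The co-chaperone genes Dnajc3 and Dnajb11 fell by 0.51 and 0.36 (adjusted p = 0.032 and 0.043) and stood at 0.69 and 0.65 with Dox+4μ8c against untreated cells (adjusted p = 0.013 and 0.0082, with the losses given above). Serp1, which stabilises ER membrane proteins, at -0.55, the disulfide isomerase gene Pdia6 at -0.26 and the COPII coat gene Sec24d at -0.13 did not pass between Dox+4μ8c and Dox. None of the 5 falls passed without Dox+4μ8c replicate 1 or replicate 2, a loss that all genes shared in those fits. The falls of Dnajc3 and Dnajb11 did not pass without the block (adjusted p = 0.47 and 0.55). The fall of Dnajb11 also failed without Dox replicate 2 (0.11) or either untreated array (0.069 in each case), or with each array centred on its median (0.052), and the rise of Edem1 with Dox failed without untreated replicate 1 (0.067) or replicate 2 (0.066).

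MIST1 forms dimers with itself or with E proteins. None of 7 measured genes for E proteins, the common bHLH partners (Tcf3, Tcf4, Tcf12), and Id proteins, which block E proteins (Id1 to Id4), passed limma's test in any comparison. At an unadjusted p under 0.05, 1 was lower with Dox (Id4, at -0.15) and 1 was higher with Dox+4μ8c against untreated cells (Id3, at 0.22). Between Dox+4μ8c and Dox the 7 ranged from -0.03 to 0.15, and 0 had an unadjusted p under 0.05. Of 14 measured bHLH factors of other tissues, 0 passed in any comparison. Before adjustment, 4 had a p under 0.05 with Dox (2 in each direction), 3 did with Dox+4μ8c against Dox (1 higher, 2 lower) and 1 did with Dox+4μ8c against untreated (lower). Neurod1, a β-cell bHLH factor, was at -0.24 with Dox and 0.21 with Dox+4μ8c against Dox (limma adjusted p = 0.068 and 0.18), signs opposite to those of Bhlha15. Hes6, Scx and Hes1 were at 0.01, 0.24 and 0.13 with Dox, and at -0.17, -0.04 and -0.13 with Dox+4μ8c against Dox. Of these 14 genes, 4 were at 0 on all 3 arrays of experiment 1, so that their means count that experiment as 0.

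Among 15 measured transcription factor genes of secretory cells, 2 rose with Dox, 1 fell with Dox+4μ8c against Dox and 2 were higher with Dox+4μ8c than untreated. Over all genes these shares were 4.42%, 1.61% and 1.17%. Creb3l1, which encodes the ER-anchored factor OASIS, rose with Dox by 0.69 (SE 0.06, limma adjusted p = 0.0034; 0.067 without the block) and differed by -0.16 between Dox+4μ8c and Dox (adjusted p = 0.40). It stayed 0.53 above untreated cells with Dox+4μ8c (adjusted p = 0.018). That difference did not pass without the block (0.18), without Dox+4μ8c replicate 1 (0.19) or replicate 2 (0.099), or without untreated replicate 1 (0.11) or replicate 2 (0.068). Atf6b, a relative of the UPR sensor ATF6, fell by 0.40 with Dox+4μ8c against Dox (adjusted p = 0.036), but not without either Dox+4μ8c array, either untreated array or Dox replicate 2 (adjusted p from 0.054 to 0.46). Xbp1, described above, is the other gene of the list that passed. Over the 36 listed factor genes of these 3 lists, the highest change with Dox was that of Creb3l1 at 0.69. The lowest between Dox+4μ8c and Dox was that of Atf6b at -0.40. Bhlha15, at 1.35 and -1.44, was chosen for these changes, so its distance from the listed factors is no result.

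In the pancreas Bhlha15 marks acinar cells, and 6 of 12 listed acinar genes were measured. They were Cpa1, Cela1, Ctrb1, Pnlip and Cel, which encode digestive enzymes, and Ptf1a, an acinar bHLH factor. None passed limma's test in any comparison, and 0 had an unadjusted p under 0.05. With Dox they ranged from 0.01 to 0.14, and between Dox+4μ8c and Dox from -0.12 to 0.03. The probesets of 5 of the 6 were at 0 on all 3 arrays of experiment 1, against 25.5% of all probesets. Their changes rest on experiment 2 alone, and the means, which count experiment 1 as 0, are smaller in size than the difference in experiment 2. For Cela1 that difference was -0.25 between Dox+4μ8c and Dox, against a mean of -0.12.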

How the data were processed

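mRNA was measured on Affymetrix 3′ arrays. The authors deposited log2 values from RMA (version not given in the sources used here), which corrects background, normalizes arrays and summarises probes. They are centred per probeset within a replicate number. The median over the 3 arrays of experiment 1 was 0 in 100% of probesets, and experiment 2 fits a median of 0 over 4 arrays in 100% (0.836% over the 3 held here). The centring removes levels, and the number of arrays limits the precision. The labels give Dox at 4 μg/ml and the methods 2 μg/ml.

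Of 25476 probesets, 17978 had 1 gene symbol (378 several, 7068 none, 52 controls), and their log2 values were averaged into 12603 genes. No gene was filtered out. The test was that of limma 3.58.1 under R 4.3.3 (two-sided, 3 contrasts, Benjamini-Hochberg over all genes), with the experiment as a replicate block, 2 residual and 4.25 prior degrees of freedom. The replicate numbers of the labels were taken as the 2 independent experiments of the methods. Over genes, the deviations of same-numbered arrays from the group means had correlations of 0.03, 0.10 and 0.03, which the centring makes uninformative about the pairing. Ranks are those of the mean log2 difference, and fold changes its power of 2. Tables and figures used Python 3.11.15, pandas 2.3.3 and matplotlib 3.10.9.

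The gene, the 9 gene lists, the motifs and the alternatives were chosen with earlier results of these data known. Named genes were all measured MIST1 targets, the list members that passed or had the smallest p, the 8 genes closest to Bhlha15 and its neighbours in rank. The procedure was tested on simulated data. Promoters came from RefSeq (GRCr8).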

Additional observations from a re-analysis of the deposited data

How the results depend on the processing

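Bhlha15 kept the direction of its rise with Dox and of its difference between Dox+4μ8c and Dox under all alternatives tried. It was the lowest gene between Dox+4μ8c and Dox under all of them except ranking by moderated t. By that ranking it was placed 10 (64 for Dox, 7362 for Dox+4μ8c against untreated). Several alternatives could not change its log2 differences, since it has 1 probeset and each experiment gave 1 array per group. These were no replicate block, 1 probeset a row, and leaving out probesets ending in _x_at, _s_at or _a_at or those at 0 in experiment 1. The pattern is also the one that Bhlha15 was chosen for. With 1 array left out its log2 change ranged from 1.15 to 1.54 with Dox (place 10 to 18), from -1.65 to -1.24 between Dox+4μ8c and Dox (place 1 to 1) and from -0.30 to 0.11 with Dox+4μ8c against untreated (place 488 to 4853). The place was 18 and the rise 1.15 without Dox replicate 2. The number of genes called in either direction moved more. A fit without the replicate block counts the offset of the centring between experiments as spread. In that fit limma called 440 with Dox and 143 between Dox+4μ8c and Dox, against 810 and 225 with the block. For Dox+4μ8c against untreated limma called 0 (2083 at an unadjusted p under 0.05), against 290 with the block. With 1 probeset a row it called 0 between Dox+4μ8c and Dox (1722 at an unadjusted p under 0.05) and 90 for Dox+4μ8c against untreated. With 1 array left out the counts ranged from 239 to 1759, from 0 (without either Dox+4μ8c array, 1432 and 595 at an unadjusted p under 0.05) to 905 and from 11 to 712. An array left out leaves its group with 1 array, assumed to vary like the other groups.

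List members called in at least 1 comparison numbered 2 of the MIST1 targets (0 without the replicate block, 0 to 4 with 1 array left out), 8 of the IRE1-XBP1 arm (4 without the block, 7 to 8 with 1 array left out) and 3 of the secretory-cell factors (1 without the block, 1 to 6). They were 2 of the granule Rab genes (0 without the block, 1 to 3), 2 of the β-cell markers (1 without the block, 1 to 4) and 1 of the other islet markers (0 without the block). Other bHLH factors had 0 (0 to 3 with 1 array left out), and the bHLH partners and acinar markers 0 throughout. Leaving out the probesets at 0 on all arrays of experiment 1, an alternative chosen after seeing the data, moved no count by over 1.5 times. The cause of these shifts was not tested. Measured genes numbered 6 for the MIST1 targets, 9 for the IRE1-XBP1 arm and 15 for the secretory-cell factors. They numbered 8 for the granule Rab genes, 9 for the β-cell markers and 3 for the other islet markers. The share of all genes called in at least 1 comparison was not computed, so these counts are not read against a background.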

Other observations

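Of 9 measured β-cell marker genes, 0 rose and 2 fell with Dox, beside 4.42% and 2.01% of all genes. With Dox+4μ8c against Dox 1 rose and 0 fell, beside 0.175% and 1.61% of all genes. At an unadjusted p under 0.05, 0 were higher in the first and 0 lower in the second comparison. Mafa, a β-cell transcription factor that activates the insulin genes, moved opposite to Bhlha15. It was at 0.03 with Dox+4μ8c, -0.69 with Dox and 0.00 in untreated cells in experiment 1, and at 0.04 with Dox+4μ8c, -0.47 with Dox and -0.04 in untreated cells in experiment 2. The Dox array was the lowest in both. The log2 change of Mafa was -0.56 with Dox (SE 0.07, limma adjusted p = 0.0090), 0.62 with Dox+4μ8c against Dox (SE 0.07, adjusted p = 0.019) and 0.06 with Dox+4μ8c against untreated (adjusted p = 0.76). The fall did not pass without untreated replicate 1. The rise did not pass without Dox+4μ8c replicate 1 or replicate 2, a loss that all genes shared in those fits. Iapp, which encodes islet amyloid polypeptide, fell with Dox by 0.25 (limma adjusted p = 0.041), but the fall did not pass without the replicate block (0.052) or in 5 of the 6 fits that left 1 array out. Ins1 and Ins2 were at -0.03 and -0.13 with Dox and did not pass. Of 3 measured markers of other islet cells, the glucagon gene Gcg fell with Dox (log2 change -2.22, limma adjusted p = 0.00072, and 0.054 without the replicate block). Irx2 and Ppy, at 0.15 and 0.13, did not pass. Irx2 was at 0 on all 3 arrays of experiment 1, so its change rests on experiment 2 alone, where it was 0.29. Gcg was at 0.86 with Dox+4μ8c against Dox (limma adjusted p = 0.021) and at -1.36 with Dox+4μ8c against untreated (adjusted p = 0.0061). Neither passed without the replicate block (0.52 and 0.21) or without Dox+4μ8c replicate 1, and the first did not pass without Dox+4μ8c replicate 2. All genes shared the loss of the first without either Dox+4μ8c array, and that of the second without the block.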
